A study of Mus musculus with 10 samples.

Results

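Heterotrimeric G proteins relay signals from cell-surface receptors, and both gene families described here act on that relay. RGS proteins speed up GTP hydrolysis by the Gα subunit and so switch signalling off, whereas a Gγ protein pairs with Gβ to form the βγ dimer that anchors the complex at the membrane and acts on effectors of its own. In the pancreas these signals tune hormone secretion, and in vessels and blood cells they tune contraction and migration.

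A set of 6 RGS genes and 3 Gγ genes, *Rgs2*, *Rgs4*, *Rgs5*, *Rgs16*, *Rgs17*, *Rgs10*, *Gng12*, *Gng4* and *Gng11*, were followed across the cells of the embryonic mouse pancreas. They are 9 of the 27716 genes listed in all 10 count matrices of the study, 6 of a list of 23 RGS genes and 3 of a list of 12 Gγ genes. The genes were chosen by their measured levels over cell classes and stages in these same libraries, so those levels are given as a description, with no test. Levels are given for all 9 genes without a filter on low values. In the fits across all genes described below, the filter on low counts kept 7 of the 9 for beta-like against alpha-like cells, 5 for *Fev*+-like against *Ngn3*+-like, 7 for epsilon-like against alpha-like, 8 for mural-like against other mesenchymal and 4 for macrophage-like against mast-like cells.

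The study sequenced single cells of pooled embryonic pancreata on the 10x Genomics 3′ platform. In Swiss Webster embryos, version 1 (v1) libraries of all live cells were made at E12.5, at E14.5 in 2 batches and at E17.5, and version 2 (v2) libraries were made at the same 3 stages from live cells lacking surface CD140a, the product of *Pdgfra*, a mesenchymal receptor. A further v2-kit library held live GFP+ and TdTomato+ cells from E14.5 *Fev-Cre;ROSA26mTmG* embryos, in which Cre driven by *Fev*, a transcription factor gene of endocrine progenitors, turns a membrane TdTomato reporter into membrane GFP. Mice of this line were kept on a C57BL/6J background, so that library differs from the others in strain too. Dissociation lasted 10 min at E12.5, 15 min at E14.5 and 30 min at E17.5, so stage and dissociation time cannot be told apart. The 2 wells of v2 E17.5 were technical replicates of 1 suspension and were summed, which left 8 independent libraries.

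The matrices held 15671934 to 127151679 unique molecular identifiers (UMIs) each. At E17.5, haemoglobin transcripts made up 60.9% of UMIs in the v1 library and 31.8% and 31.7% in the 2 v2 wells. Apart from the 2 alignments of the *Fev-Cre* library, pairs of matrices of 1 kit shared 10 to 155 cell barcodes. Cells were sorted into 18 classes by their markers, each named "-like", with every RGS and G protein gene held out of clustering and naming. Cells of v2 libraries named other mesenchymal stood apart from that label: their *Pdgfra* level was 2.12 to 3.90 CPM (UMIs scaled to a class total of 1000000) against 37.3 to 85.8 CPM in v1 and *Fev-Cre* libraries, and their level of *Upk3b*, a mesothelial gene, was 225 to 1414 CPM against 0.642 to 7.68 CPM. Epsilon-like cells of v2 E12.5 also stood apart, with 76626 CPM of summed alpha markers against 11532 CPM of summed epsilon markers.

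By their means over libraries, the 9 genes did not all peak in the same class (see the plot of levels by class). Among endocrine cells *Gng12* was highest in beta-like cells, *Rgs4* in alpha-like cells, *Rgs17* in epsilon-like cells and *Rgs16* in *Ngn3*+-like progenitors. *Gng4* was found in all 6 endocrine classes, and its highest mean was in epsilon-like cells too. Outside the endocrine lineage *Rgs5* was highest in mural-like cells, *Gng11* in endothelial-like cells, *Rgs10* in macrophage-like cells and *Rgs2* in lymphoid-like and mast-like cells. To obtain a level, UMIs were added up per gene, library and class and divided by the class total, in CPM. They are 3′ counts, not scaled to transcript length, so levels are compared between classes and not between genes. Classes next to each other in the order of levels are said to differ by less than their spread where their means were less than 1 SD apart.

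**Figure D1:**
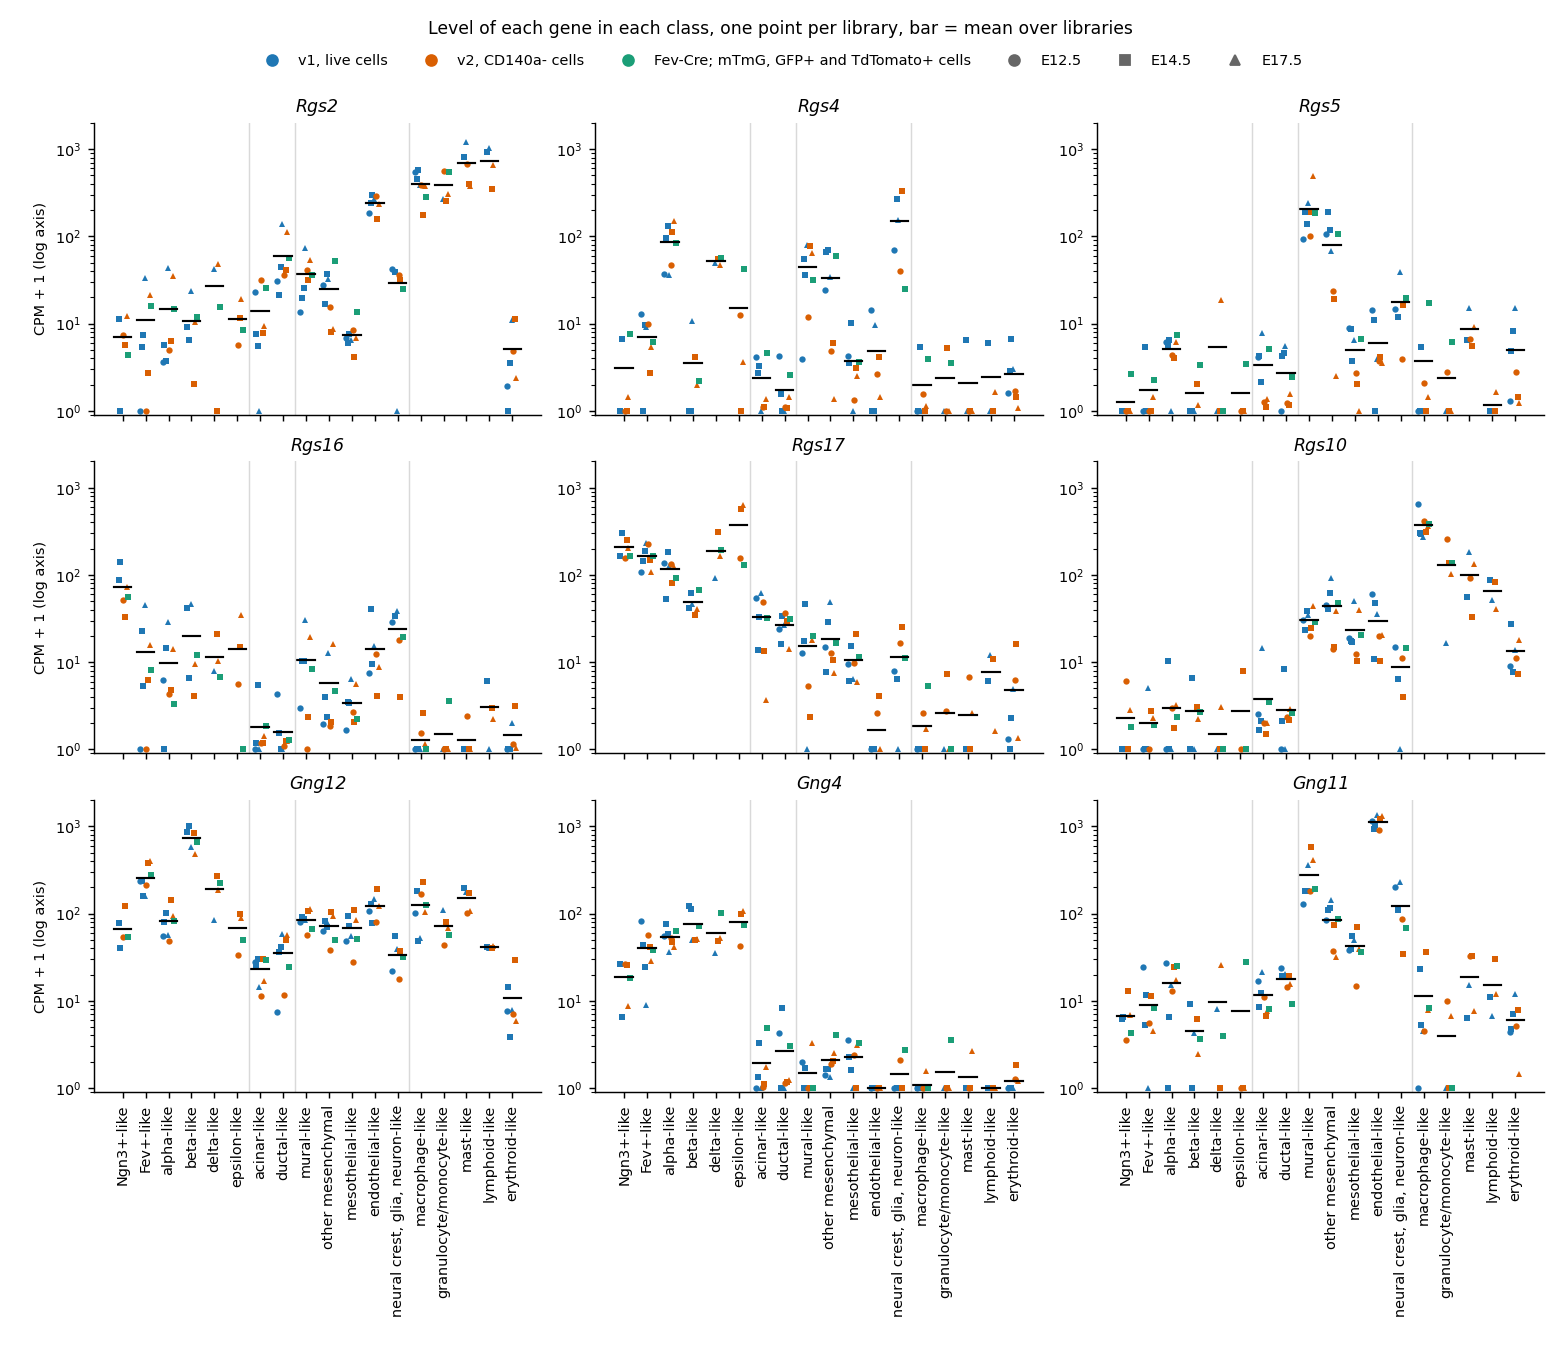
Level of each of the 9 genes (CPM + 1, log axis) in each of the 18 classes, with 1 point per library, coloured by kit and sort and shaped by stage, and a bar at the mean over libraries. *Gng12* peaks in beta-like cells (mean 739 CPM), *Gng11* in endothelial-like cells (mean 1132 CPM) and *Rgs10* in macrophage-like cells (mean 372 CPM).

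The 250 bases upstream of 1 annotated start site each of *Gng12* and *Gng4*, the Gγ genes of beta-like and of all endocrine cells, and of the neighbours *Rgs4* and *Rgs5* are shown so that these regions can be compared. Sequences are from RefSeq (GRCm38.p6), 5′ to 3′ on the gene's strand, and capitals mark the E-box core CANNTG, the letters bound by basic helix-loop-helix factors such as Ngn3. *Gng12* lies at chr6:66896397-67021350 (+) and the window at chr6:66896147-66896396. *Gng4* lies at chr13:13784059-13827896 (+) and the window at chr13:13783809-13784058. *Rgs4* lies at chr1:169741477-169747642 (−) and the window at chr1:169747643-169747892. *Rgs5* lies at chr1:169655501-169695813 (+) and the window at chr1:169655251-169655500.
Gng12: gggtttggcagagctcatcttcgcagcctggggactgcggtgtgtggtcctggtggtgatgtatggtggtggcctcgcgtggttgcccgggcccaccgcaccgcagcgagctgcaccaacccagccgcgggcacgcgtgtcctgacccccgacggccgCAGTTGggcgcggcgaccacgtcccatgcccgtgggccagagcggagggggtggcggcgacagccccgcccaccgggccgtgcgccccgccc
Gng4: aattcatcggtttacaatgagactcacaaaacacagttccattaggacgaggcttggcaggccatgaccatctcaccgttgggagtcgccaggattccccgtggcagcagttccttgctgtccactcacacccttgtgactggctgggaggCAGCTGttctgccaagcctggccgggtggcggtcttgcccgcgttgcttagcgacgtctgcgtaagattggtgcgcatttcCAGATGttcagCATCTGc
Rgs4: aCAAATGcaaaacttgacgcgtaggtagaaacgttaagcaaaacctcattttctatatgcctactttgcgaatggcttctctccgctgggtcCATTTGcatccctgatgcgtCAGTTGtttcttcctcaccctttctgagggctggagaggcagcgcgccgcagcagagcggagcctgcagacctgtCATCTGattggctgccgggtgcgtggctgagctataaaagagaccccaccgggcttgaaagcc
Rgs5: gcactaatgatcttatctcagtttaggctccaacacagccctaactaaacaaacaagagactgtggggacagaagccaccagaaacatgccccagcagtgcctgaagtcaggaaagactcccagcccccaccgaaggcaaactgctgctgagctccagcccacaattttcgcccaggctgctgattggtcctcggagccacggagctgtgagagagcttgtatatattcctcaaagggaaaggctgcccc

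The window of *Gng12* held 1 CANNTG, that of *Gng4* held 3, that of *Rgs4* held 4 and that of *Rgs5* held 0. CANNTG reads the same on both strands as a pattern and was present in 66.2% of 32851 such windows, chromosome 18 left out. CAGATG on either strand, which is 1 form of CANNTG, was found in 2 of the *Gng4* matches and 1 of the *Rgs4* matches and was present in 14.4% of all windows. A TATAAA match was present in the *Rgs4* window and in 12.4% of all windows. RefSeq lists a second start site for *Gng12* and for *Gng4*, not printed here, with 0 CANNTG and 75.6% GC in the *Gng12* window and 2 CANNTG, 0 CAGATG and 70.4% GC in the *Gng4* window. These are matches of letters and were not tested as sites. GC content of the printed windows was 74.4% for *Gng12*, 56.4% for *Gng4* and 53.6% for *Rgs4* and *Rgs5*, against a median of 52.4% over all windows. Of the 9 genes, 8 had a RefSeq promoter entry and *Gng11* was not matched. *Rgs4* and *Rgs5* are neighbours on chromosome 1, 45.7 kb apart, with 0 annotated genes between them.

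In the endocrine lineage the 2 Gγ genes behaved differently. *Gng12* encodes a widely expressed Gγ subunit. In beta-like cells its level was 662 CPM in the *Fev-Cre* library, 849 and 1015 CPM in the v1 E14.5 batches, 584 CPM at v1 E17.5, 842 CPM at v2 E14.5 and 480 CPM at v2 E17.5. Its mean of 739 ± 198 CPM (SD, n = 6 libraries) was followed by 257 ± 91.4 CPM (n = 8) in *Fev*+-like cells, and the lowest beta-like library lay above the highest *Fev*+-like library, at 402 CPM. *Fev*+-like and delta-like cells, at 190 ± 78.8 CPM (n = 4), differed by less than their spread. Alpha-like cells had 81.9 ± 30.7 CPM (n = 8) and *Ngn3*+-like cells 65.6 ± 29.8 CPM (n = 6).

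*Gng12* transcripts were also found in more beta-like cells than alpha-like cells. After thinning every cell to 2000 UMIs in v1 libraries or 3000 UMIs in v2 and *Fev-Cre* libraries, 66.7% to 84.3% of beta-like cells held a *Gng12* UMI, against 9.62% to 30.6% of alpha-like cells. In erythroid-like cells the share was 0% to 6.27%. The 0% stands for 0 of 114 cells, which allows a share of cells with a UMI of up to 2.63%. Haemoglobin made up 39.6% to 88.8% of the UMIs of this class, which leaves fewer thinned UMIs for other genes. The *Fev-Cre* library had no erythroid-like class. This share therefore does not give the level of free RNA in beta-like cells. Median depth before thinning was 3978 to 20942 UMIs per beta-like cell and 4486 to 13330 UMIs per erythroid-like cell. Without thinning, the mean share of beta-like cells with a UMI was 93.7% and that of alpha-like cells was 30.6%.

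*Gng4*, a Gγ subunit known from neural tissue, was found in all 6 endocrine classes. Its mean level was 79.4 ± 28.6 CPM (n = 4) in epsilon-like, 75.4 ± 33.4 CPM (n = 6) in beta-like, 58.8 ± 29.4 CPM (n = 4) in delta-like, 52.8 ± 12.53 CPM (n = 8) in alpha-like and 39.8 ± 22.4 CPM (n = 8) in *Fev*+-like cells. Neighbours in this order differed by less than their spread. *Ngn3*+-like cells had 17.8 ± 9.20 CPM (n = 6), and the next class, ductal-like cells, had 1.64 ± 2.57 CPM (n = 8). Single libraries of these classes overlapped. In v1 E14.5 batch 2, *Ngn3*+-like cells had 5.58 CPM from 1 UMI and ductal-like cells 7.28 CPM from 4 UMIs. In endothelial-like and lymphoid-like cells *Gng4* was at 0 in every library. At v2 E17.5 the limit that a count of 0 allows, 3 counts of the total, was 1.28 CPM in 243 endothelial-like and 0.944 CPM in 463 lymphoid-like cells. *Gng4* was detected in 11.1% to 28.6% of thinned beta-like cells, against 0% to 1.75% of ductal-like cells. Median depths were 3978 to 20942 and 3938 to 12591 UMIs. Both *Gng12* and *Gng4* were found in 16.7% of 497 *Fev-Cre* beta-like cells, against 16.3% for the product of their shares, and in 9.39% of 575 at v2 E17.5, against 9.60%.

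*Rgs4*, a regulator of Gi and Gq signalling, showed the opposite pattern to *Gng12* between the beta-like and alpha-like classes. Its level in alpha-like cells was 83.9 CPM in the *Fev-Cre* library, 93.9 and 131 CPM in the v1 E14.5 batches, 35.0 CPM at v1 E17.5, 111 CPM at v2 E14.5 and 149 CPM at v2 E17.5. In beta-like cells of the same libraries it was 1.19, 0, 0, 9.74, 3.13 and 0.989 CPM, and the classes did not overlap. The values of 0 stand for no UMI in the beta-like cells of both v1 E14.5 batches. After thinning, 5.77% to 29.6% of alpha-like cells and 0% to 0.775% of beta-like cells held an *Rgs4* UMI, at median depths of 3036 to 10325 and 3978 to 20942 UMIs per cell. The 0% stands for 0 of 27 and 0 of 28 cells in the v1 E14.5 batches and 0 of 54 at v1 E17.5. These counts allow shares of up to 11.1%, 10.7% and 5.56%. Delta-like cells, at 50.8 ± 4.30 CPM (n = 4), varied little between libraries.

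*Rgs4* was not confined to islet cells. Its highest mean, 148 ± 129 CPM (n = 6), was in neural crest, glia and neuron-like cells, which ranged from 23.7 CPM in the *Fev-Cre* library to 334 CPM at v2 E14.5. Neural crest, alpha-like, delta-like and mural-like levels each differed from the next by less than their spread.

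Within each library, the ratio of beta-like over alpha-like cells gave the same picture (see the plot of ratios by library). The log2 ratio of *Gng12* was 3.02 ± 0.44 (n = 6), higher in 6 of 6 libraries and without overlap between the classes. The log2 ratio of *Rgs17* was -1.12 ± 0.57, lower in 6 of 6, although its class levels overlapped. *Gng4* was higher in beta-like cells in 6 of 6 libraries by 0.45 ± 0.33 on the log2 scale, but its class levels overlapped. Beta markers took a large part of the beta-like total. With the markers of each class left out of its total, a choice made after the data had been seen, the log2 ratio was 3.33 ± 0.32 for *Gng12*, -0.81 ± 0.48 for *Rgs17* and 0.76 ± 0.31 for *Gng4*, each in the same direction in 6 of 6. In a fit across all 8409 genes tested, 4.86% were called higher and 4.70% lower in beta-like cells by edgeR's quasi-likelihood test (adjusted p below 0.05 and at least 2-fold). These shares are given as background, since the members' levels had served to choose them.

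Of the other 70 genes of 8 G protein families, 23 were tested in that comparison, with 0 higher and 1 lower in beta-like cells. The gene that fell was *Gnai1*, an inhibitory Gα subunit, at 26.9 ± 34.7 CPM in beta-like and 119 ± 42.5 CPM in alpha-like cells (n = 6), a log2 fold change of -1.90 (edgeR adjusted p = 7.47e-07, lower in 6 of 6 libraries). At an unadjusted p below 0.05, edgeR gave 7 of the 23 (30.4%, against 36.2% of all genes tested), and DESeq2 called 1 (4.35% against 9.30%). The median log2 fold change of the 23 was 0.02, against -0.02 over all genes tested.

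**Figure D2:**
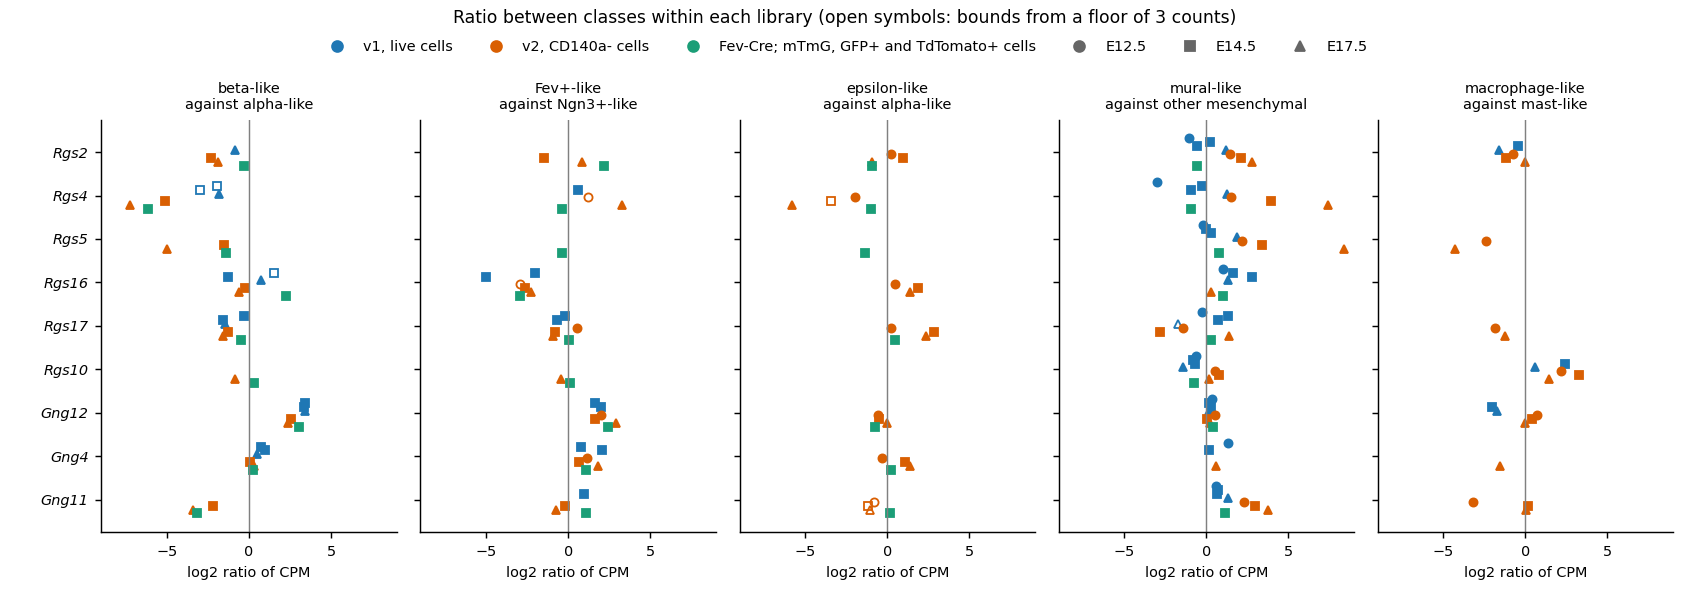
Log2 ratio of CPM between 2 classes of the same library for each gene, in 5 comparisons, with 1 symbol per library coloured by kit and sort and shaped by stage. Open symbols are bounds from a floor of 3 counts, and bounds that give no direction are left out. *Gng12* lies right of 0 in all 6 libraries for beta-like over alpha-like cells, and *Rgs16* lies left of 0 in all 6 for *Fev*+-like over *Ngn3*+-like cells.

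*Rgs16* was highest in endocrine progenitors. It encodes a Gi and Gq regulator that is induced by many stimuli. In *Ngn3*+-like cells it stood at 55.5 CPM in the *Fev-Cre* library, 87.2 and 139 CPM in the v1 E14.5 batches, 50.9 CPM at v2 E12.5, 32.0 CPM at v2 E14.5 and 70.9 CPM at v2 E17.5. The mean of 72.6 ± 37.7 CPM (n = 6) exceeded that of the next class, neural crest, glia and neuron-like cells at 22.8 ± 12.7 CPM (n = 6), by more than the spread, although single libraries overlapped. In *Fev*+-like cells of the same 6 libraries the mean was 8.85 CPM, lower in 6 of 6 and without overlap. In the *Fev*+-like cells of both libraries with fewer than 20 *Ngn3*+-like cells, *Rgs16* stood at 44.2 CPM from 11 UMIs at v1 E17.5, above the *Ngn3*+-like value of v2 E14.5, and at 0 UMIs in 20 cells at v1 E12.5. Thinned shares were 8.74% to 20.6% of *Ngn3*+-like cells and 0% to 1.75% of ductal-like cells, with median depths of 2844 to 7511 and 3938 to 12591 UMIs.

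*Rgs17*, a regulator of the Gz and Gi classes, was found across the endocrine lineage. The highest mean was in epsilon-like cells (370 ± 263 CPM, n = 4). Their levels were 129 CPM in the *Fev-Cre* library, 157 CPM at v2 E12.5, 564 CPM at v2 E14.5 and 629 CPM at v2 E17.5. The first pair of these values lay close to the alpha-like levels of the same libraries, 91.4 and 132 CPM, and the last pair lay far above them, at 79.9 and 121 CPM in alpha-like cells. Summed alpha markers in the epsilon-like cells moved with this split. They were 22739 CPM in the *Fev-Cre* library and 76626 CPM at v2 E12.5, but 3206 CPM at v2 E14.5 and 1682 CPM at v2 E17.5, and their part in the difference was not tested. Lower *Rgs17* means followed in *Ngn3*+-like cells (207 ± 59.3 CPM, n = 6), delta-like cells (189 ± 90.6 CPM, n = 4), *Fev*+-like cells (164 ± 47.9 CPM, n = 8), alpha-like cells (115 ± 39.8 CPM, n = 8) and beta-like cells (47.7 ± 12.8 CPM, n = 6). The steps from *Fev*+-like to alpha-like and from alpha-like to beta-like cells exceeded the spread, and those between epsilon-like, *Ngn3*+-like, delta-like and *Fev*+-like cells did not. The order differed in single libraries. In the *Fev-Cre* library delta-like (192 CPM), *Fev*+-like (165 CPM) and *Ngn3*+-like cells (162 CPM) lay above epsilon-like cells. At v2 E12.5 *Fev*+-like cells, at 225 CPM, also lay above them. *Rgs17* was not confined to endocrine cells. It stood at 2.72 to 60.9 CPM in acinar-like and 13.3 to 35.4 CPM in ductal-like cells. At v1 E17.5 acinar-like cells, at 60.9 CPM from 9 UMIs, lay above beta-like cells at 45.4 CPM. They lay below beta-like cells in every other library that had both classes. Of thinned epsilon-like cells, 29.8% to 82.9% held an *Rgs17* UMI, against 0% to 0.474% of endothelial-like cells, at median depths of 4707 to 9227 and 3189 to 8502 UMIs.

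Between *Ngn3*+-like and *Fev*+-like cells, which are successive progenitor states, the genes moved in both directions. *Gng12* was higher in *Fev*+-like cells by 2.11 ± 0.50 on the log2 scale (n = 6), in 6 of 6 libraries and without overlap. *Gng4* was higher in 6 of 6 by 1.27 ± 0.57. *Rgs17* was higher in 2 of 6, with a log2 ratio of -0.34 ± 0.56. Over all 8699 genes tested, edgeR called 8.99% higher and 8.89% lower in *Fev*+-like cells.

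Of the other G protein genes, 23 were tested between these progenitors, and 7 rose and 4 fell in *Fev*+-like cells by edgeR, and the median log2 fold change of the 23 was 0.29 against 0.02 over all genes. Gα genes made up 5 of the 7, of 9 Gα genes tested. The 3 largest rises were in *Gng3*, a neuronal Gγ subunit (38.8 ± 21.7 against 3.09 ± 2.84 CPM, log2 fold change 3.41, edgeR adjusted p = 3.20e-06), *Gnao1*, a Gα subunit abundant in brain (206 ± 46.5 against 29.2 ± 16.4 CPM, 2.52, adjusted p = 1.03e-07), and *Gnai1* (67.5 ± 24.9 against 11.3 ± 3.88 CPM, 2.29, adjusted p = 8.29e-07). The 3 largest falls were in *Gng13* (-3.19, adjusted p = 0.000263), *Rgs3* (-2.68, adjusted p = 1.95e-06) and *Rgs12* (-1.42, adjusted p = 0.00876). Each of these 6 genes moved the same way in 6 of 6 libraries. *Gng3* passed the filter on low counts through its *Fev*+-like counts. Its *Ngn3*+-like mean of 3.09 CPM lay near the floor of 3 counts, which was 1.35 to 16.7 CPM over those libraries. The size of its fold change is therefore imprecise.

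The *Fev-Cre* reporter gave a further view of *Fev*+-like cells, in 1 library. A GFP UMI was found in 94.99% of *Fev*+-like cells. It was found in 18.3% of *Ngn3*+-like cells, at a median of 7024 UMIs per cell, and in 12.9% to 37.6% of the cells of classes outside the endocrine lineage, whose medians were 5795 to 18424 UMIs. *Gng12* stood at 284 CPM (95% Poisson interval 270 to 299) in 739 *Fev*+-like cells with a GFP UMI and at 165 CPM (117 to 226) in 39 cells without. *Rgs17* was ordered the other way, at 154 CPM (143 to 165) with and 415 CPM (337 to 505) without. These intervals cover counting error only, and there is no replicate of this split.

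Between epsilon-like and alpha-like cells, *Rgs17* was higher in 4 of 4 libraries (log2 ratio 1.49 ± 1.30), with 0.25 at v2 E12.5 and 0.50 in the *Fev-Cre* library, and a mean of 1.90 (n = 3) without v2 E12.5, whose epsilon-like cells stood apart. *Rgs4* was lower in 4 of 4 without overlap, at 13.9 ± 19.0 CPM in epsilon-like cells. *Gng12* was lower in 4 of 4, by 0.47 ± 0.30 on the log2 scale, and *Gng4* was higher in 3 of 4. This comparison shares 3 of its 4 alpha-like libraries with that of beta-like cells. By edgeR, 0.0922% of 8679 genes were called higher and 0.0115% lower, that is 9 genes, and 148 genes were called without v2 E12.5. Of 22 other family genes tested, edgeR and DESeq2 each called 0 (DESeq2 called 0.899% of all genes), with 2 at an unadjusted p below 0.05 in edgeR (9.09% against 10.2% of all genes tested) and a median log2 fold change of -0.10 against -0.01 over all genes. Without v2 E12.5, edgeR called 1 of the other family genes.

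*Rgs5*, long used as a pericyte gene, had its highest mean in mural-like cells, that is vascular smooth muscle and pericytes. Its level there was 91.8 CPM at v1 E12.5, 189 and 139 CPM in the v1 E14.5 batches, 242 CPM at v1 E17.5, 100, 191 and 494 CPM at the 3 v2 stages and 182 CPM in the *Fev-Cre* library. In other mesenchymal cells of these libraries it was 104, 189, 116, 66.7, 22.4, 18.0, 1.49 and 106 CPM. The means, 204 ± 128 and 78.0 ± 63.2 CPM (n = 8), differed by less than their spread, and mural-like cells were higher in 6 of 8 libraries. The levels of the 2 classes overlapped among v1 libraries, while all 3 v2 libraries had more in mural-like than in any other mesenchymal cells of v2. Beyond these classes, neural crest, glia and neuron-like cells followed at 16.6 ± 11.8 CPM (n = 6), and ductal-like cells held an *Rgs5* UMI in 0% to 2.08% of thinned cells against 15.6% to 59.0% of mural-like cells, at median depths of 3938 to 12591 and 3038 to 10603 UMIs.

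The contrast of mural-like with other mesenchymal cells differed between the v1 libraries and the CD140a-depleted v2 libraries (see the plot of mural-like and other mesenchymal cells). For *Rgs5* the log2 ratio was 0.48 ± 0.94 in the 4 v1 libraries and 4.65 ± 3.29 in the 3 v2 libraries. For *Rgs4* it was -0.75 ± 1.75 and 4.28 ± 2.96. *Rgs10* was lower in mural-like cells of all 4 v1 libraries (-0.90 ± 0.38) and higher in all 3 v2 libraries (0.50 ± 0.30). The *Fev-Cre* library, made with the v2 kit from cells not depleted of CD140a and from another strain, had log2 ratios of 0.78 for *Rgs5*, -0.92 for *Rgs4* and -0.74 for *Rgs10*. Each lay within the range of the v1 libraries and below that of the 3 v2 libraries. In the depleted libraries the comparison cells were the ones that carried *Upk3b* and little *Pdgfra*, and the part of this in the ratios was not tested.

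*Gng11* and *Gng12* kept 1 direction in this contrast. *Gng11* was higher in mural-like cells in 8 of 8 libraries, by 1.69 ± 1.18 on the log2 scale, with 0.83 ± 0.34 in v1 and 3.002 ± 0.72 in v2 libraries. *Gng12* was higher in 8 of 8 by a small margin of 0.28 ± 0.17. *Rgs16* was higher in 7 of 8, at 9.59 CPM in mural-like cells on average. Endothelial markers summed to 100 to 287 CPM in mural-like cells against 4746 to 10214 CPM in endothelial-like cells, with 2 or 3 of the 8 markers above 20 CPM. Their part in the *Gng11* level of mural-like cells was not tested.

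Over the 12259 genes of that comparison, edgeR called 2.60% higher and 2.55% lower in mural-like cells. Of 40 other family genes tested, edgeR called 0, with 14 at an unadjusted p below 0.05 (35% against 25.96% of all genes tested). DESeq2 called 3 (7.5% against 5.37%), which were *Rgs7bp*, *Gngt2* and *Adcy4* (these were named after their values were seen). The median log2 fold change of the 40 family genes was 0.09, against -0.07 over all genes tested.

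**Figure D3:**
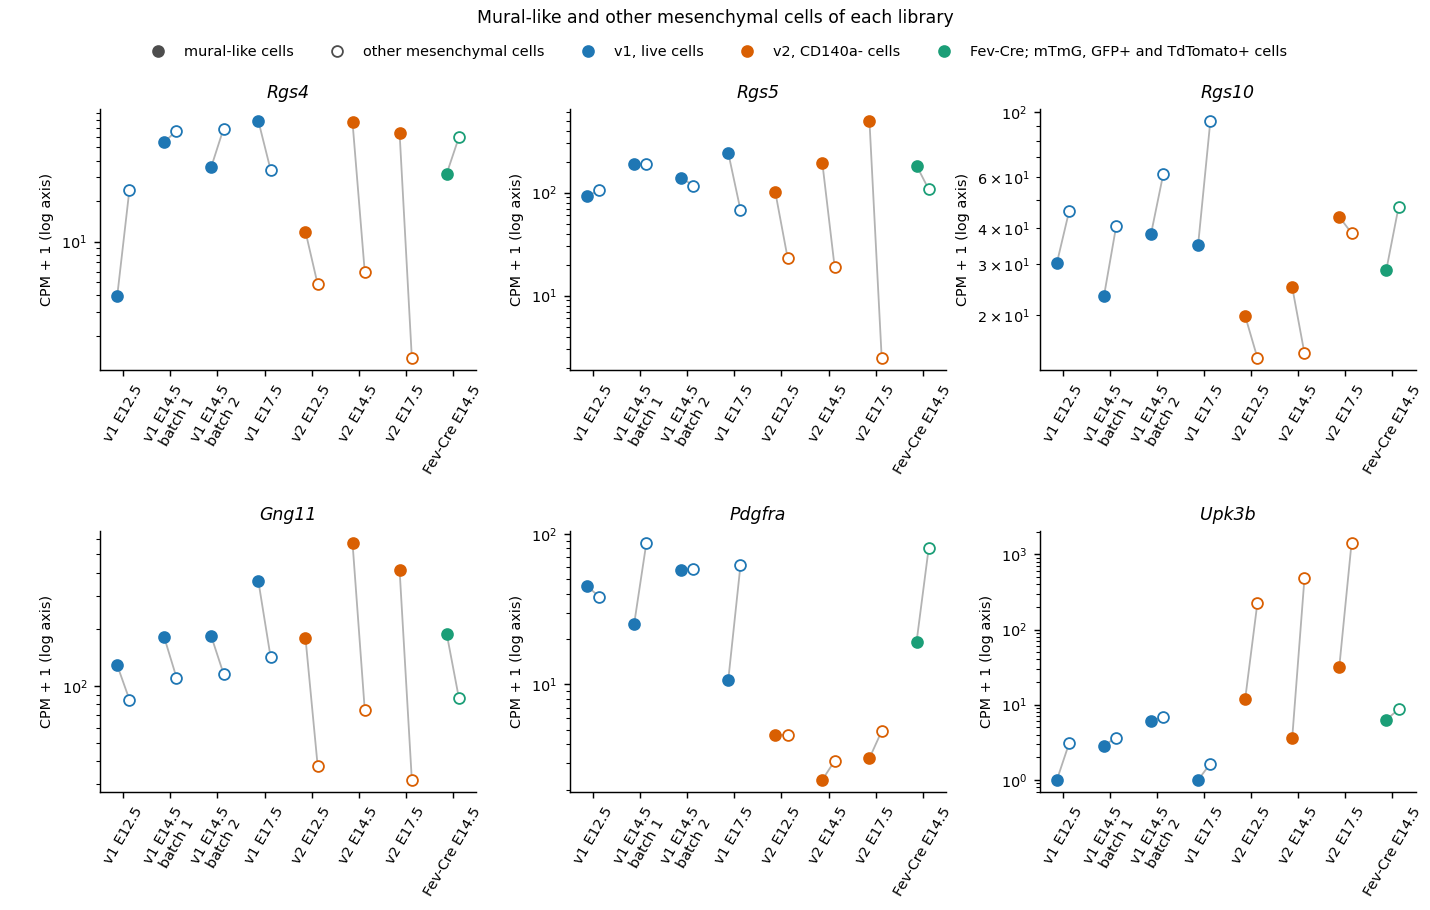
Levels (CPM + 1, log axis) of *Rgs4*, *Rgs5*, *Rgs10*, *Gng11*, *Pdgfra* and *Upk3b* in mural-like cells (filled) and other mesenchymal cells (open) of each of the 8 libraries, joined by a line per library. Other mesenchymal cells of the 3 v2 libraries have 1.49 to 22.4 CPM of *Rgs5* and 225 to 1414 CPM of *Upk3b*.

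In thinned mural-like cells of 7 libraries, 1.18% to 9.40% held both *Rgs4* and *Rgs5*, shares that depth limits. They were above the product of the separate shares in 7 of 7. The same was seen outside this class: in other mesenchymal cells 1.02% to 5.24% held both, above the product in 5 of 5 libraries, and in neural crest, glia and neuron-like cells above it in 2 of 3. In mural-like cells of v1 E14.5 batch 1, 6.58% of 152 thinned cells held both, against a product of their shares of 3.12%, and at v2 E17.5 9.40% of 234 cells did, against 8.06%. In other mesenchymal cells both genes were also present, *Rgs4* at 58.5 and *Rgs5* at 106 CPM in the *Fev-Cre* library and at 65.5 and 189 CPM in v1 E14.5 batch 1. In alpha-like cells, which carried *Rgs4*, *Rgs5* stood at 4.16 ± 2.00 CPM (n = 8).

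*Gng11* was highest in endothelial-like cells. It encodes a Gγ subunit found in many non-neural tissues. In endothelial-like cells it was between 896 and 1364 CPM, with a mean of 1132 ± 184 CPM (n = 7), and its lowest library lay above the highest mural-like library, at 573 CPM. Mural-like cells had 275 ± 156 CPM (n = 8), neural crest, glia and neuron-like cells 121 ± 77.3 CPM (n = 6) and other mesenchymal cells 84.3 ± 37.9 CPM (n = 8). A UMI was present in 80.8% to 95.1% of thinned endothelial-like cells, against 0% to 2.34% of acinar-like cells, at median depths of 3189 to 8502 and 2458 to 18424 UMIs.

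Among immune cells *Rgs10* and *Rgs2* were ordered differently. *Rgs10*, a small Gi regulator known from myeloid cells, was at 643 CPM at v1 E12.5, 301 and 291 CPM in the v1 E14.5 batches, 269 CPM at v1 E17.5, 412, 310 and 360 CPM at the v2 stages and 388 CPM in the *Fev-Cre* library in macrophage-like cells. All 8 lay above the highest granulocyte- or monocyte-like library, at 259 CPM. The means then fell from 372 ± 120 CPM (n = 8) to 130 ± 87.7 CPM (n = 5) in granulocyte- or monocyte-like, 98.3 ± 60.4 CPM (n = 5) in mast-like and 64.5 ± 22.8 CPM (n = 4) in lymphoid-like cells, and these 3 differed by less than their spread. *Rgs10* UMIs were present in 39.3% to 72.7% of thinned macrophage-like cells and 0% to 3.70% of acinar-like cells, at median depths of 3001 to 9657 and 2458 to 18424 UMIs.

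*Rgs2*, a regulator selective for Gq, was high in all 4 immune classes. Its mean was 738 ± 301 CPM (n = 4) in lymphoid-like, 689 ± 335 CPM (n = 5) in mast-like, 398 ± 131 CPM (n = 8) in macrophage-like and 385 ± 154 CPM (n = 5) in granulocyte- or monocyte-like cells. Endothelial-like cells came next at 238 ± 52.0 CPM (n = 7). Each of these 5 differed from the next by less than the spread. The endothelial-like cells stood apart from the rest, with their lowest library, at 158 CPM, above the highest ductal-like library, at 137 CPM. In thinned mast-like cells 44.9% to 72.6% held a UMI, against 0% to 8.59% of acinar-like cells, at median depths of 2384 to 7078 and 2458 to 18424 UMIs.

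Macrophage-like over mast-like cells gave a log2 ratio of 1.98 ± 1.03 (n = 5) for *Rgs10*, higher in 5 of 5 libraries and without overlap, and -0.81 ± 0.61 for *Rgs2*, lower in 5 of 5. *Gng12* was higher in 2 of 5, with a log2 ratio of -1.90 ± 0.19 in the 2 v1 libraries and 0.38 ± 0.36 in the 3 v2 libraries. Mast markers summed to 0 to 27.6 CPM in macrophage-like cells, with 0 of the 8 above 20 CPM, and macrophage markers summed to 208 to 1438 CPM in mast-like cells. EdgeR called 12.3% of 6426 genes higher and 8.71% lower in macrophage-like cells.

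Of 28 other family genes tested there, 3 were higher and 7 lower in macrophage-like cells, and their median log2 fold change was 0.23 against -0.03 over all genes. The 3 that rose were *Rgs7bp*, a membrane anchor of RGS proteins (log2 fold change 3.99, edgeR adjusted p = 0.00214, higher in 4 of 5 libraries), *Rgs3* (3.02, adjusted p = 0.0106, in 3 of 5) and *Gna12*, a Gα subunit (2.62, adjusted p = 0.00293, in 5 of 5). The 3 largest falls were in genes with almost no counts in macrophage-like cells. These genes passed the filter on low counts through their mast-like counts alone. *Gnaz*, a Gi-class Gα subunit, had 0 counts in macrophage-like and 167 in mast-like cells, at least 359-fold lower at a floor of 3 counts over the group (edgeR adjusted p = 0.000314). *Rgs13*, an RGS gene known from mast cells, had 1 and 107 counts, a ratio of 689 with a counting interval of 121 to 27474 (adjusted p = 4.92e-06). *Gna14* had 1 and 105 counts, a ratio of 676 with an interval of 119 to 26965 (adjusted p = 1.40e-05).

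Stages were compared by library, with 2 libraries at E17.5 and no replicate of a stage within a kit other than v1 E14.5. Of 56 pairs of a gene and a class at a mean of 10 CPM or more, both E17.5 libraries lay above all earlier ones in 8 pairs and below them in 3. Over all genes, 3.99% of 95324 such pairs lay above and 14.3% below. Of the 8 pairs, 3 were of *Rgs2* (see the plot of levels by stage). It stood at 42.03 and 34.3 CPM at E17.5 against 2.60 to 13.8 CPM earlier in alpha-like cells, at 137 and 111 CPM against 20.2 to 55.6 CPM in ductal-like cells, and at 72.7 and 52.4 CPM against 12.7 to 40.6 CPM in mural-like cells. The E17.5 libraries were also those with the longest dissociation and the most haemoglobin, and these cannot be told apart from stage.

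In mural-like cells *Rgs5* also stood higher at E17.5, at 242 and 494 CPM against 91.8 to 191 CPM. The summed mural markers of these cells were 13932 and 12691 CPM at E17.5 against 2651 to 5009 CPM earlier, and their part was not tested. *Gng11* in endothelial-like cells was at 1364 and 1314 CPM against 896 to 1228 CPM. *Gng12* in ductal-like cells was at 55.3 and 56.6 CPM against 6.53 to 48.7 CPM. *Rgs10* was higher at E17.5 in mesothelial-like and mast-like cells and lower in granulocyte- or monocyte-like cells, at 15.6 and 101 CPM against 135 to 259 CPM. The 15.6 CPM at v1 E17.5 was 1 UMI in 30 cells, below the floor of 3 counts at 46.8 CPM.

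*Gng12* in beta-like cells and *Gng4* in alpha-like cells made up the other pairs that were lower at E17.5. For *Gng12* the values were 584 and 480 CPM against 662 to 1015 CPM. Summed beta markers, insulin among them, took 294455 and 456815 CPM of the beta-like total at E17.5 against 99479 to 266471 CPM earlier. With the markers left out of the total, a choice made after the data had been seen, *Gng12* was at 828 and 883 CPM against 736 to 1166 CPM and no longer stood below. *Gng4* in alpha-like cells remained below all earlier libraries on that scale, at 38.1 and 45.2 CPM against 48.7 to 80.1 CPM.

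**Figure D4:**
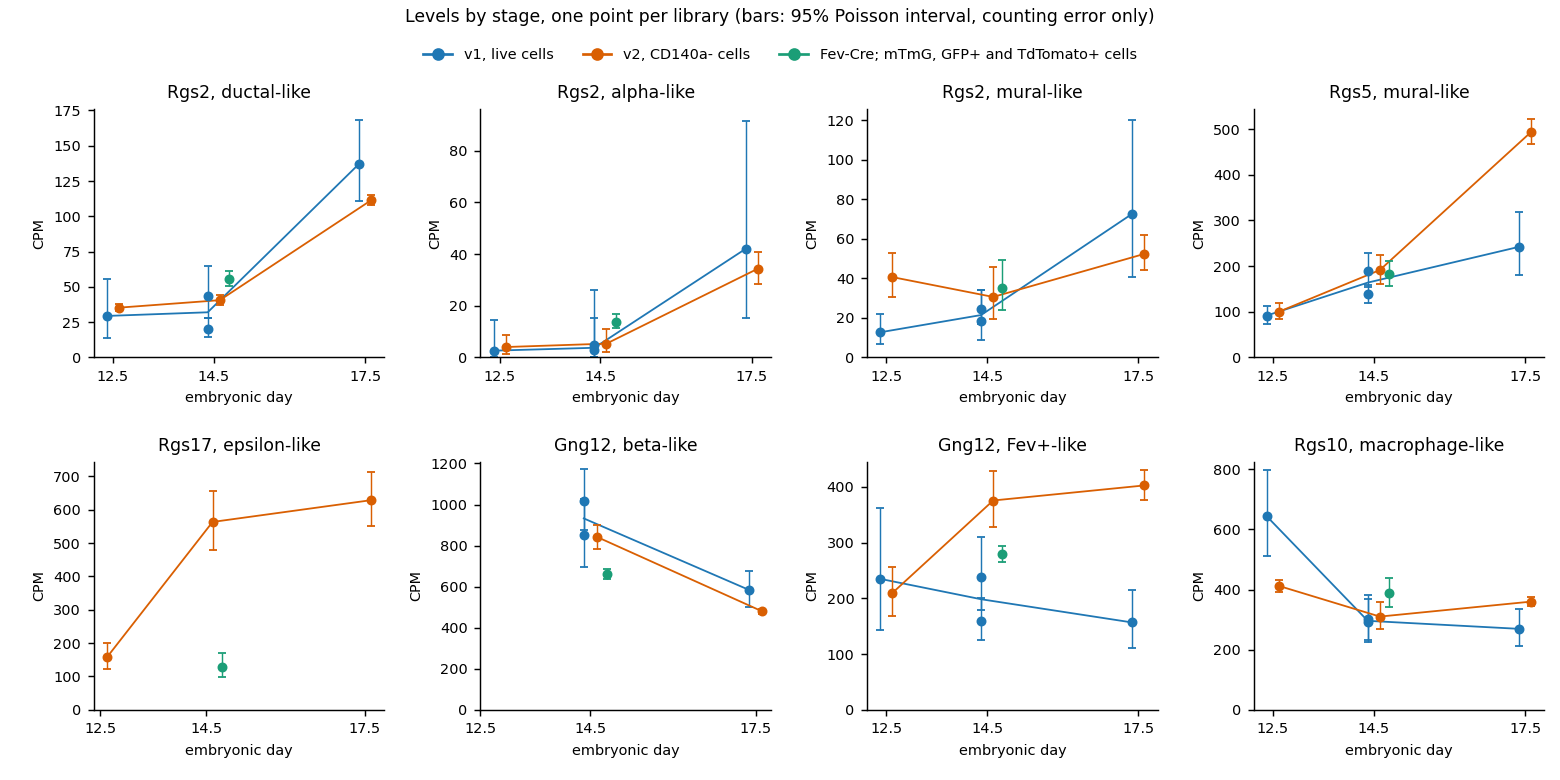
Levels (CPM) by embryonic day for 8 pairs of a gene and a class, with 1 point per library coloured by kit and sort, bars for 95% Poisson intervals that cover counting error only, and lines joining the means of a kit. *Rgs2* in ductal-like cells is 137 and 111 CPM at E17.5 and at most 55.6 CPM earlier, and *Rgs17* in epsilon-like cells runs from 157 to 629 CPM in v2 libraries. The 157 CPM is from v2 E12.5, whose epsilon-like cells held more summed alpha markers than epsilon markers.

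The genes closest to each of the 9 in level over the 18 classes were ranked by Pearson correlation of log2(CPM + 10) among 10240 genes, as a description. *Gng4* was closest to *Scgn*, a calcium sensor of endocrine cells (r = 0.99), *Fam183b* (0.98) and *Pak3* (0.98). *Rgs17* was closest to *Necab2* (0.96), *0610040B10Rik* (0.96) and *Pla2g2f* (0.95), and *Rgs16* to *Shc2* (0.93), *Pik3r3* (0.88) and *Gadd45g* (0.88). *Rgs4* lay near *Cdh2*, which encodes N-cadherin (0.90), *Serpine2* (0.87) and *Ncam1* (0.84). *Gng12* had the lowest leading value of the 9, with *Dnajb9* (0.88), *Rap1b* (0.83) and *Fam117b* (0.82).

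Outside the endocrine lineage, *Rgs5* was closest to *Vstm4* (0.98), *Prrx1*, a mesenchymal transcription factor gene (0.97), and *Sema5b* (0.97). *Gng11* was closest to *Hmcn1* (0.95), *Mapk12* (0.95) and *Ldb2* (0.95). *Rgs10* was closest to *Bmp2k* (0.94), *Plekho2* (0.93) and *Rab8b* (0.92), and *Rgs2* to *Fxyd5* (0.97), *Gmfg* (0.95) and *Jak3*, a cytokine receptor kinase (0.95). The classes share libraries and depth, so these values describe likeness of level only.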

How the data were processed

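Single-cell libraries of embryonic mouse pancreas were analysed from the deposited UMI counts, which the authors made per gene and cell barcode with Cell Ranger 1.1 (v1) and 2.1 (v2 and *Fev-Cre*) on mm10, with no normalization. The *Fev-Cre* library is used in its alignment with reporters. Barcodes with 200 or more genes were kept, cells with markers of more than 1 compartment (epithelial, mesenchymal, endothelial, immune), each at 30% or more of that compartment's usual share and 3 or more UMIs, were removed as doublets (264 of 7897 cells in the *Fev-Cre* library, 1440 of 13182 at v2 E12.5), which leaves doublets within a compartment unmarked, and cells were clustered with scanpy 1.11.5 (Leiden 0.10.2, resolution 1). Classes were named from marker lists, several of them taken from the study of these samples, and the thresholds for naming were set after the clusters had been seen. Cells of no named class were not analysed further. The 9 genes and the family lists were chosen with earlier results of these data known.

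UMIs were summed per library and class (20 or more cells) and scaled to CPM. Cells are not replicates. Libraries serve as replicates, although they differ in stage, kit, sort and strain. With library as block, p-values measure how the class difference within a library varies between libraries. Classes were compared by edgeR 4.0.16 (quasi-likelihood test, TMM, library as block, Benjamini-Hochberg over all genes; R 4.3.3), checked on simulated data, with DESeq2 1.42.0 as an alternative. The 2 classes of a comparison come from the same suspension, so libraries pair them. Over genes, deviations from the class means correlated within libraries at 0.381 to 0.847, and every within-library value was above 0.1. The highest value between libraries was 0.021 to 0.625 by comparison. For beta-like against alpha-like cells it was 0.498, above the lowest within-library value of 0.447. In the other comparisons it lay below the lowest within-library value. Named genes are the 9, the 3 family genes with the largest change in each direction among those called, and the 3 genes most alike each of the 9. No column of the authors' own comparisons was used. Ratios against a class with 0 counts are bounds at a floor of 3 counts. Shares of cells used cells thinned to 2000 (v1) or 3000 (v2, *Fev-Cre*) UMIs, with shallower cells left out. Intervals and floors cover counting error only. Gene positions are from the GENCODE annotation of GRCm38.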

Additional observations from a re-analysis of the deposited data

Results flagged for a closer look

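*Rgs10* in mural-like against other mesenchymal cells was picked out because the v1 libraries and the CD140a-depleted v2 libraries moved in opposite directions. The log2 ratio of mural-like over other mesenchymal cells was below 0 in all 4 v1 libraries (mean -0.90, from -1.45 to -0.61) and above 0 in all 3 v2 libraries (mean 0.50, from 0.19 to 0.80), a difference between the means of -1.40. The difference was not tested. In the *Fev-Cre* library, made with the v2 kit but without depletion of CD140a+ cells and from another strain, *Rgs10* stood at 27.7 CPM in mural-like and 46.3 CPM in other mesenchymal cells, a log2 ratio of -0.74, within the range of the v1 libraries. Of the 2 classes, other mesenchymal cells varied more, from 39.6 to 92.4 CPM in v1 against 13.2 to 37.4 CPM in v2, while mural-like cells ranged from 22.3 to 37.1 CPM and from 18.9 to 42.6 CPM. No group of replicates was large enough for a test of single libraries that stand apart.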

How the results depend on the processing

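With no replicate block in place of the paired fit, edgeR called fewer genes in every comparison: 413 in place of 804 for beta-like against alpha-like cells, 795 in place of 1555 for *Fev*+-like against *Ngn3*+-like, 0 in place of 9 for epsilon-like against alpha-like, 147 in place of 632 for mural-like against other mesenchymal and 648 in place of 1349 for macrophage-like against mast-like cells. Leaving out 1 library each gave 464 to 968, 1204 to 1585, 0 to 148, 374 to 689 and 808 to 1524 calls in the same order. The count for beta-like cells moved by more than 1.5 times without v2 E14.5 (500) or v2 E17.5 (464), that for mural-like cells without v2 E12.5 (374) and that for macrophage-like cells without v2 E17.5 (808). Every library moved the epsilon-like count, to 148 without v2 E12.5, 1 without v2 E14.5, 0 without v2 E17.5 and 4 without *Fev-Cre*, and so did DESeq2 (78), no filter on low counts (324), doublets kept (0), resolution 2 (67) and a minimum of 500 genes per cell (190). With no filter, 1345 genes were called for beta-like and 2090 for macrophage-like cells, and with 500 genes per cell 370 for mural-like cells. A pair of subsets of the mural-like comparison was chosen after seeing the data: v1 and *Fev-Cre* libraries gave 399 calls, 261 of them shared with all 8 libraries, and v2 libraries alone gave 1042, 427 of them shared. For the 9 genes themselves, 434 of 439 log2 ratios and 782 of 786 CPM means under another setting moved by less than 1 SD between libraries. None turned the direction of a difference of at least 2-fold seen in all libraries. Of these alternatives, 197 ratios and 408 means came from leaving out 1 library. That cannot move a mean by 1 SD, so their outcome was fixed in advance. Shares of cells with a UMI moved by 1 SD or more in 69 of 88 alternatives, all of which changed depth. With the markers of a class left out of its total, also chosen after seeing the data, no log2 ratio between endocrine classes moved by 1 SD or more, 9 of 56 pairs of a gene and a class stood above all earlier libraries at E17.5 in place of 8, and 2 below in place of 3. A class could rest on as few as 20 cells of a library, which limits the precision of genes at low levels.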
